A study of Mus musculus with 7 samples.

Results

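The CDK inhibitors are the proteins that hold cyclin-dependent kinases in check, and 7 of the 55401 genes in the deposited mouse count table encode them. The members were the rows whose gene name was exactly *Cdkn1a*, *Cdkn1b*, *Cdkn1c*, *Cdkn2a*, *Cdkn2b*, *Cdkn2c* or *Cdkn2d*, however few reads they held. RNA was sequenced from knee tissue labelled as cartilage, and the study's methods also list subchondral bone. The samples came from the right knees of male C57BL/6J mice after destabilisation of the medial meniscus (DMM). This operation makes the joint unstable and leads to osteoarthritis. The mice underwent DMM at 10 weeks of age and were killed 2 weeks later. There were 4 WT samples and 3 *Trpc1-/-* samples, each pooled from 2 to 3 mice, and both groups had undergone DMM; no unoperated or sham joint was analysed here. The *Trpc1-/-* mice carry a germline deletion of an exon of *Trpc1*, a calcium-permeable cation channel gene, and the allele is present in every cell type, not in chondrocytes alone. Group sizes are those of the sample labels, which differ from those in the study's methods.

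A cell enters S phase once cyclin-bound kinases have phosphorylated the retinoblastoma protein and released E2F transcription factors. The CIP/KIP inhibitors p21 (*Cdkn1a*), p27 (*Cdkn1b*) and p57 (*Cdkn1c*) bind a broad range of cyclin-CDK complexes, whereas the INK4 inhibitors p16Ink4a (*Cdkn2a*), p15 (*Cdkn2b*), p18 (*Cdkn2c*) and p19Ink4d (*Cdkn2d*) bind CDK4 and CDK6 only. In the skeleton, p57 is known for its role in the exit of growth plate chondrocytes from the cell cycle, p21 as a p53 and TGF-β target, and p16Ink4a as a marker of senescent and osteoarthritic chondrocytes. *Cdkn2a* also encodes p19Arf, an unrelated protein that stabilises p53, from its own first exon.

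Promoter sequences are shown for 3 members, *Cdkn1a*, *Cdkn2c* and *Cdkn2d*, and for *Cdkn2a* because its row pools transcripts from separate start sites. No start site was available for *Cdkn1c*. The sequences below are the 250 bases before annotated RefSeq start sites on GRCm38.p6, written 5′ to 3′ on the strand of the gene. Capitals mark a GC box (GGGCGG, the core of the site bound by Sp1-type factors) or an E2F motif (TTTCCCGC or TTTGGCGC), each searched on both strands. *Cdkn1a* and *Cdkn2c* each had 2 start sites in the table, of which the GC-rich one is shown. For *Cdkn2a* both windows are shown, since the upstream start gives p19Arf and the downstream one p16Ink4a.

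Cdkn1a, chr17:29093519-29093768, plus strand: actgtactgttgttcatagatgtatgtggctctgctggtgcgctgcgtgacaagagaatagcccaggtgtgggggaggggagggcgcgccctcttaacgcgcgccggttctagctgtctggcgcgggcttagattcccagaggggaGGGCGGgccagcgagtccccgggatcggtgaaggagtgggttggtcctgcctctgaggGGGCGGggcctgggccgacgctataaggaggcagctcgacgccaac

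Cdkn2c, chr4:109666757-109667006, minus strand: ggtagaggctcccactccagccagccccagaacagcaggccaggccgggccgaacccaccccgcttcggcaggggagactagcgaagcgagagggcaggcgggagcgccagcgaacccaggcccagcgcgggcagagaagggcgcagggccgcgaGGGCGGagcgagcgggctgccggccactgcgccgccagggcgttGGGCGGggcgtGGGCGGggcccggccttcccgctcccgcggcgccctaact

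Cdkn2d, chr9:21291210-21291459, minus strand: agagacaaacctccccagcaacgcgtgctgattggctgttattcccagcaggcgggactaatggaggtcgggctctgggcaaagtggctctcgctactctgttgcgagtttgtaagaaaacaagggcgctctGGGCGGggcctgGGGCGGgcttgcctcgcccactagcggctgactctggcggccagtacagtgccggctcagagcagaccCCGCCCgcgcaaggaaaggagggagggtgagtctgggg

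Cdkn2a, p19Arf start, chr4:89294620-89294869, minus strand: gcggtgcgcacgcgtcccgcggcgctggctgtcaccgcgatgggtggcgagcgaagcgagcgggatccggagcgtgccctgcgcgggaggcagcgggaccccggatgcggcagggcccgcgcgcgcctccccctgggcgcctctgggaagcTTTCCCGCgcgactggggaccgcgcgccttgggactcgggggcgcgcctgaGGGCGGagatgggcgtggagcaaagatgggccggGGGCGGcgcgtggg

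Cdkn2a, p16Ink4a start, chr4:89282193-89282442, minus strand: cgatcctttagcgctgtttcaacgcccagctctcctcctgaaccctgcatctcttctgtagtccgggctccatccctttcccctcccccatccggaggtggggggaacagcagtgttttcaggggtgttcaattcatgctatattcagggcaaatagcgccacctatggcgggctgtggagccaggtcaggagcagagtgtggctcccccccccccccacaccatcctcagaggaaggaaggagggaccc

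The *Cdkn1a* window held 2 GC boxes, 104 and 46 bases before the start. *Cdkn2c* held 3, at 95, 51 and 40 bases, and *Cdkn2d* held 3, at 118, 106 and 38 bases. Among windows not shown, the other one of *Cdkn1a* and the other one of *Cdkn2c* held 0 GC boxes. That of *Cdkn2b* held 0 and that of *Cdkn1b* 1. The p19Arf window carried 2 GC boxes and 1 E2F motif 99 bases before its start, and these letters were not found in the p16Ink4a window. A GC box occurred in 32.7% and the E2F motif in 1.30% of 32851 mouse promoter windows of the same length. A TATA box (TATAAA), present in 12.4% of all windows, was in none of the windows of the 6 members with a promoter in the table, and these matches are descriptions of letters, not of bound sites.

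The libraries held between 52142451 and 118254070 counts, so 3 counts correspond to between 0.0244 and 0.0631 CPM, counts of a gene scaled to a fixed library total. CPM here are also scaled by TMM, a normalisation on the trimmed mean of log ratios between libraries. WT replicate 1 was the shallowest library, and the mean correlation of its log CPM with the other samples was 0.963, compared with 0.985 to 0.988 for the others. The targeted gene *Trpc1* gave 4.32 to 4.82 CPM in WT samples and 3.03 to 3.78 CPM in *Trpc1-/-* samples, and a count over the whole gene does not separate out the deleted exon. All 12 chondrocyte markers examined were detected, with a summed level of 5917 to 6150 CPM in WT samples. The 15 erythroid markers in the table summed to 20210 to 58295 CPM over all samples, so the tissue labelled as cartilage contained much red-cell RNA. The study's methods list subchondral bone among the tissue collected. In bulk RNA, fewer cells of a type and less RNA per cell cannot be told apart.

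The levels of the 7 genes were first set in order, per kilobase of merged exon, averaged over the 7 samples. *Cdkn2d* was the highest at 22.9 CPM per kb, followed by *Cdkn1b* at 18.6 and *Cdkn2c* at 17.0 CPM per kb. *Cdkn1c* at 4.70 and *Cdkn1a* at 3.39 CPM per kb formed a middle tier, and *Cdkn2b* at 0.364 and *Cdkn2a* at 0.0657 CPM per kb lay far below. Neighbours within a tier were not cleanly ordered: *Cdkn2d* exceeded *Cdkn1b*, *Cdkn1b* exceeded *Cdkn2c*, and *Cdkn1c* exceeded *Cdkn1a* in 6 of 7 samples each. The steps from *Cdkn2c* to *Cdkn1c*, from *Cdkn1a* to *Cdkn2b* and from *Cdkn2b* to *Cdkn2a* held in 7 of 7 samples. With the length of the longest transcript in place of the merged exons, *Cdkn1a* (5.79 CPM per kb) passed *Cdkn1c* (5.05 CPM per kb). Among all tested genes ranked in the same way, 91.0% lay below *Cdkn2d*, 54.6% below *Cdkn1c* and 4.26% below *Cdkn2b*.

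**Figure D1:**
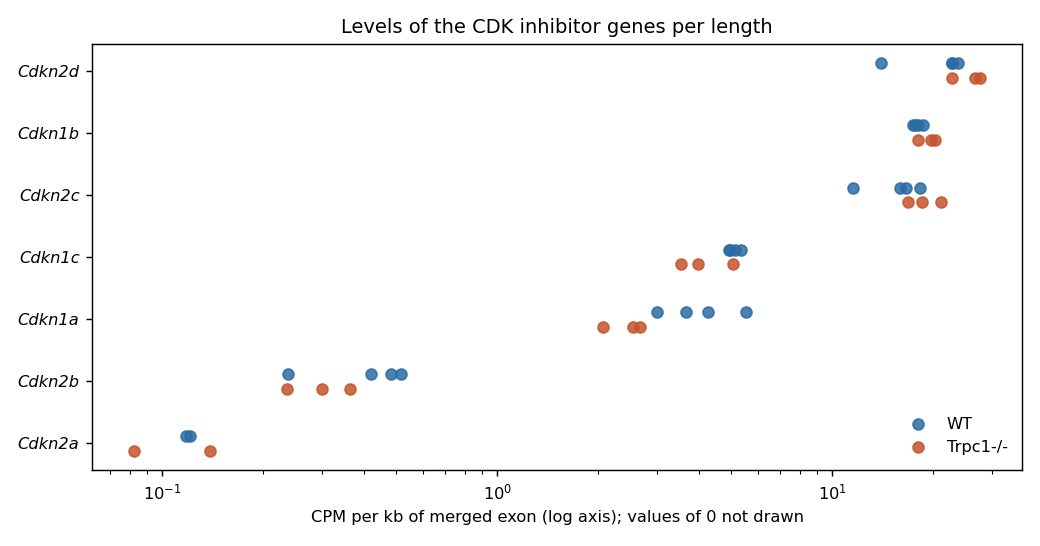
Level of each CDK inhibitor gene in each sample, in TMM-scaled CPM per kilobase of merged exon on a log axis, with WT samples in blue and *Trpc1-/-* samples in orange and values of 0 not drawn. *Cdkn2d*, *Cdkn1b* and *Cdkn2c* (means of 17.0 to 22.9) sit above *Cdkn1c* and *Cdkn1a* (3.39 to 4.70), and *Cdkn2b* and *Cdkn2a* are the lowest.

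*Cdkn1a* was the CDK inhibitor that differed most between genotypes, and its fitted level in *Trpc1-/-* samples was 0.591 times that in WT samples. *Cdkn1a* (ENSMUSG00000023067, chr17:29090976-29100727, plus strand, GRCm38) encodes p21, which is induced by p53 and by TGF-β signalling and also binds the replication clamp PCNA. WT replicates 1 to 4 had 19.7, 15.1, 13.0 and 10.6 CPM, and the *Trpc1-/-* replicates had 9.50, 9.01 and 7.33 CPM. Every *Trpc1-/-* sample was therefore below every WT sample, and this held under all 3 scalings tried. Means were 14.6 ± 3.85 CPM (SD, n = 4) in WT samples and 8.61 ± 1.13 CPM (SD, n = 3) in *Trpc1-/-* samples. The log2 fold change was −0.76 with a standard error of 0.21 in edgeR's quasi-likelihood test. Its unadjusted p of 0.00699 became 0.396 after Benjamini-Hochberg adjustment over 16429 genes, so *Cdkn1a* was not called.

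The call for *Cdkn1a* depended on the tool and on single samples. DESeq2 on the same counts gave an adjusted p of 0.0471 with the lower direction in 3 of 3 *Trpc1-/-* samples. That call was kept without WT replicate 1 (log2 fold change −0.58, adjusted p = 0.0111) and without WT replicate 4 (−0.88, adjusted p = 0.00439). It was lost in DESeq2 without WT replicate 2 (adjusted p = 0.266), WT replicate 3 (0.0863), *Trpc1-/-* replicate 1 (0.182), replicate 2 (0.119) or replicate 3 (0.574). WT replicate 1 had the highest *Cdkn1a* level, and without it edgeR gave −0.59 (adjusted p = 0.139). The library names carry numbers, and the set of 5 samples numbered below 1400 leaves out WT replicates 3 and 4. Over these 5 samples the log2 fold change was −1.01 in edgeR (adjusted p = 0.373) and −1.01 in DESeq2 (adjusted p = 0.00198).

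Of the 7 genes, 5 passed the filter of more than 1 CPM in at least 2 samples. None of the 5 was called by edgeR, where the background over all tested genes was also 0%. At an unadjusted p under 0.05, 1 of the 5 (*Cdkn1a*) passed, against 10.0% of all 16429 tested genes. DESeq2 called 1 of the 5, against 1.79% of all genes tested. The groups did not overlap for 1 of the 5, against 13.6% of all tested genes. The median log2 fold change of all tested genes was −0.0088.

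**Figure D2:**
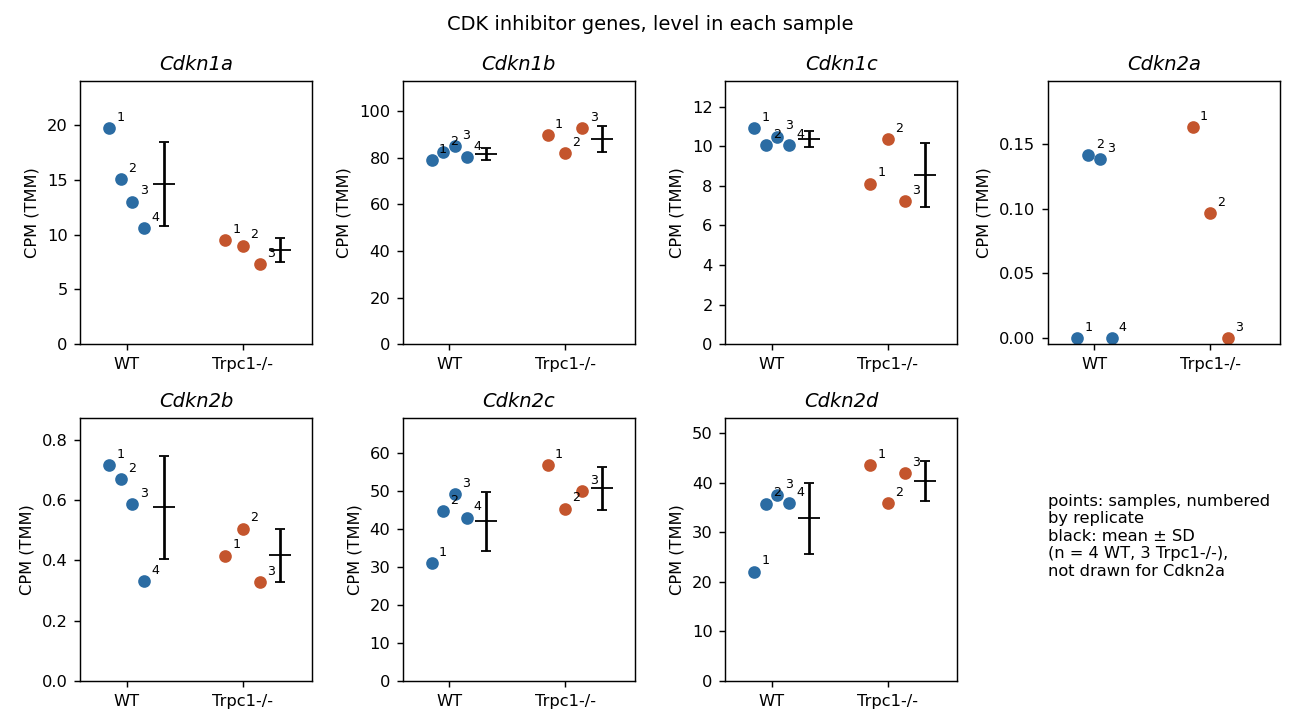
TMM-scaled CPM of each CDK inhibitor gene in each of the 4 WT and 3 *Trpc1-/-* samples, 1 panel a gene with its own linear axis. Points are samples numbered by replicate and black bars are the mean ± SD, not drawn for *Cdkn2a*. The 3 *Trpc1-/-* samples lie below the 4 WT samples for *Cdkn1a* (7.33 to 9.50 against 10.6 to 19.7 CPM), and the groups overlap for the other 6 genes.

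The other CIP/KIP genes differed less. *Cdkn1b* (ENSMUSG00000003031, chr6:134920401-134925513, plus strand) encodes p27, which accumulates in quiescent cells and is largely controlled by protein turnover. WT samples had 79.2, 82.3, 85.1 and 80.2 CPM, and *Trpc1-/-* samples had 89.9, 82.0 and 92.6 CPM. It was the steadiest member: the groups overlapped, and the log2 fold change was 0.11 ± 0.074 (SE, edgeR adjusted p = 0.605). *Cdkn1c* (ENSMUSG00000037664, chr7:143458339-143461050, minus strand) encodes p57 and is an imprinted gene expressed from the maternal allele. WT samples lay close together at 10.9, 10.1, 10.5 and 10.0 CPM, and *Trpc1-/-* samples had 8.11, 10.3 and 7.21 CPM. *Trpc1-/-* replicate 2 was within the WT range and the other two were below it. The log2 fold change was −0.28 ± 0.13 (SE), with an edgeR adjusted p of 0.511. In DESeq2 without *Trpc1-/-* replicate 2 it was −0.43 and was called (adjusted p = 0.0259).

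The opposite-strand genes AC167363.2, over *Cdkn1a*, and Gm44732, over *Cdkn1c*, averaged 0.0726 and 0.0538 CPM. Libraries were stranded and aligned with the strand setting.

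Among the INK4 genes, *Cdkn2c* and *Cdkn2d* carried nearly all of the counts. *Cdkn2c* (ENSMUSG00000028551, chr4:109660876-109667189, minus strand) encodes p18, and *Cdkn2d* (ENSMUSG00000096472, chr9:21288410-21291407, minus strand) encodes p19Ink4d, inhibitors that are widely expressed in developing blood cells. For *Cdkn2c*, WT samples had 31.0, 44.7, 49.1 and 42.9 CPM and *Trpc1-/-* samples had 56.7, 45.3 and 49.8 CPM. The log2 fold change was 0.27 ± 0.16 (SE, edgeR adjusted p = 0.565). For *Cdkn2d*, WT samples had 22.1, 35.8, 37.5 and 35.9 CPM and *Trpc1-/-* samples had 43.5, 35.8 and 41.9 CPM, a log2 fold change of 0.30 ± 0.18 (SE, edgeR adjusted p = 0.578). Both genes were lowest in WT replicate 1, and the groups overlapped for both. Without that library the log2 fold change was 0.15 for *Cdkn2c* (adjusted p = 0.458) and 0.15 for *Cdkn2d* (adjusted p = 0.378) in edgeR.

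The pair at the INK4 locus had the lowest counts: *Cdkn2a* had 0 to 20 counts a library, and *Cdkn2b* was above the floor of 3 counts in every library. *Cdkn2a* (ENSMUSG00000044303, chr4:89274471-89294653, minus strand) and *Cdkn2b* (ENSMUSG00000073802, chr4:89306299-89311039, minus strand) lie 11645 bases apart. *Cdkn2a* had 0, 15, 17 and 0 counts in WT samples and 20, 9 and 0 counts in *Trpc1-/-* samples. Both groups thus contained libraries with no count, and the two-sided exact permutation p, from 35 arrangements of the 7 samples, was 0.83. *Cdkn2b*, which encodes p15, a TGF-β-induced inhibitor, had 34, 71, 72 and 26 counts in WT samples and 51, 47 and 32 in *Trpc1-/-* samples. These corresponded to 0.575 ± 0.172 CPM (SD, n = 4) and 0.416 ± 0.0893 CPM (SD, n = 3), with an exact permutation p of 0.257, where 0.0286 is the smallest the design can give. No genotype difference in *Cdkn2a* was detected at these few counts. The libraries with 0 counts were not all shallow: *Trpc1-/-* replicate 3 had 0 in 106517535 total counts, and *Trpc1-/-* replicate 2 had 9 in 94972137. Whether the few *Cdkn2a* counts came from p16Ink4a or p19Arf transcripts cannot be told from a count over the whole gene.

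**Figure D3:**
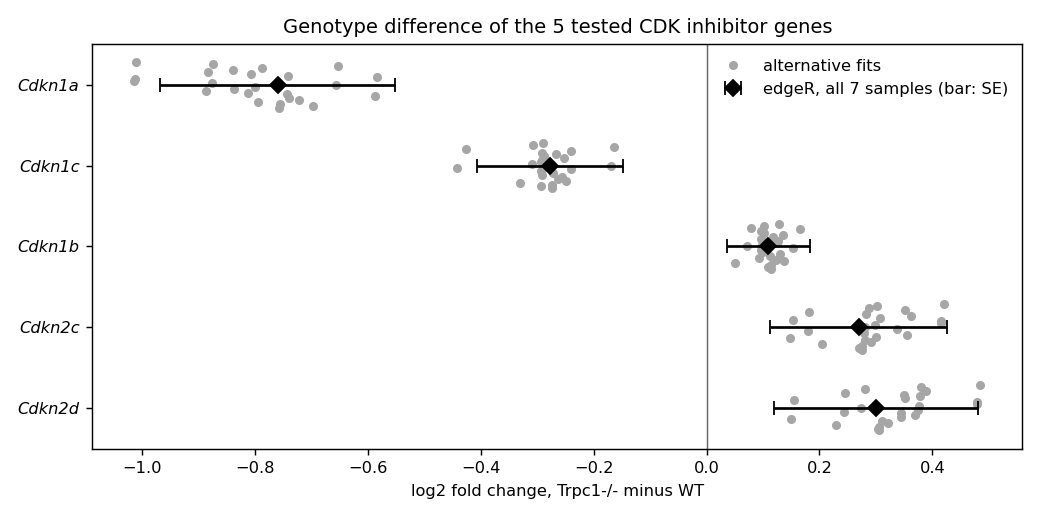
Log2 fold change (*Trpc1-/-* over WT) of the 5 CDK inhibitor genes that passed the filter; diamonds are edgeR on all 7 samples with bars of 1 standard error, and grey points are the 25 alternative fits. *Cdkn1a* lies at −0.76 and *Cdkn1c* at −0.28, while *Cdkn1b*, *Cdkn2c* and *Cdkn2d* lie between 0.11 and 0.30.

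Ratios of counts within a library do not depend on library scaling. The ratio of *Cdkn2c* to *Cdkn1a* counts was 1.58 to 4.03 in WT samples and 5.03 to 6.79 in *Trpc1-/-* samples. That of *Cdkn1b* to *Cdkn1a* was 4.02 to 7.54 and 9.10 to 12.6, respectively. The genotypes did not overlap in either ratio, nor in that of *Cdkn2d* to *Cdkn1a* (1.12 to 3.37 and 3.98 to 5.71). All of these hold *Cdkn1a*, whose own levels did not overlap, so they are no separate result. The genotypes overlapped in the ratio of *Cdkn1c* to *Cdkn1a*, at 0.553 to 0.944 in WT samples and 0.854 to 1.15 in *Trpc1-/-* samples. They also overlapped in the ratio of *Cdkn2c* to *Cdkn1b* (0.392 to 0.577 and 0.537 to 0.631). The same held for *Cdkn2d* to *Cdkn1b* (0.279 to 0.447 and 0.437 to 0.484). The ratio of *Cdkn2d* to *Cdkn2c* was 0.711 to 0.842 across all 7 samples. WT replicate 1 had the lowest value of this ratio and of the 2 ratios to *Cdkn1b*. In the other samples *Cdkn2d* to *Cdkn2c* was 0.762 to 0.842 and *Cdkn2d* to *Cdkn1b* was 0.435 to 0.484. As a share of the summed per-kilobase level of the 7 genes, *Cdkn1a* made up 4.64 to 10.2% in WT samples and 2.89 to 3.86% in *Trpc1-/-* samples. *Cdkn2d* made up 25.8 to 35.3% and 34.7 to 37.3%, so its shares overlapped.

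The patterns of the members over the 7 samples were compared by the root mean square difference of centred log2 CPM, where 0 is an identical pattern. The closest pair was *Cdkn2c* and *Cdkn2d* at 0.0782, although the genes lie on different chromosomes, and the farthest was *Cdkn1a* and *Cdkn2d* at 0.713. The largest deviation of *Cdkn2c* (−0.536) and of *Cdkn2d* (−0.681) was in WT replicate 1. Among 11117 protein-coding genes with a mean of at least 5 CPM, those most like *Cdkn1a* were *Cdon* (0.0987), *Nfasc* (0.102) and *Hmcn1* (0.112), against a median distance of 0.481. For *Cdkn1c* they were *Pcsk6* (0.0382), *Osbpl5* (0.0482) and *Fut10* (0.0581), against a median of 0.256. The nearest to *Cdkn2c* were *Bloc1s4* (0.0183), *Ssb* (0.0200) and *Pa2g4* (0.0216), against a median of 0.254. To *Cdkn2d* they were *Ncoa4* (0.0241), *Eif3i* (0.0262) and *Rpl37* (0.0277), against a median of 0.294. *Dap3* (0.0239), *Fbxo8* (0.0253) and *Exosc2* (0.0267) were nearest to *Cdkn1b*, whose own pattern was almost flat and whose median distance was 0.163.

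Marker genes of several cell types differed between the same libraries. The 12 chondrocyte markers summed to 5917 to 6150 CPM in WT samples and to 3306, 6229 and 3543 CPM in *Trpc1-/-* replicates 1 to 3, and 12 of 12 had a lower mean in *Trpc1-/-* samples. *Cdkn1c* was low in *Trpc1-/-* replicates 1 and 3 and at the WT level in replicate 2. *Cdkn1a* was lower in replicate 2 (9.01 CPM) than in any WT sample, and the chondrocyte sum of that library exceeded all 4 WT sums. The 5 superficial zone and synovial lining markers summed to 1083 to 1443 CPM in WT samples and 761 to 829 CPM in *Trpc1-/-* samples, and 5 of 5 had a lower mean.

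Erythroid and cell-cycle markers were higher in *Trpc1-/-* samples, and other blood lists overlapped between genotypes. The erythroid sum was 20210 to 37206 CPM in WT samples and 42938 to 58295 CPM in *Trpc1-/-* samples, and the sum of 10 cell-cycle markers was 2625 to 3089 CPM and 3431 to 3995 CPM. WT replicate 1, with the lowest *Cdkn2c* and *Cdkn2d*, had the lowest erythroid sum (20210 CPM) and the lowest neutrophil sum (5607 CPM, against 13058 to 17710 CPM elsewhere). Its B cell (300 CPM), plasma cell (172), T cell (13.1), macrophage (616), megakaryocyte (381), osteoclast (681), osteoblast and osteocyte (1109) and cell-cycle (2625) sums were also the lowest. Its superficial zone (1443 CPM), endothelial (320 CPM) and skeletal muscle (1179 CPM) sums were the highest. Neutrophil sums were 5607 to 17710 CPM in WT samples and 13058 to 17118 CPM in *Trpc1-/-* samples, and megakaryocyte sums were 381 to 752 CPM and 558 to 711 CPM. Skeletal muscle markers, 7 of 7 with a higher mean in *Trpc1-/-* samples, varied widely within each genotype: they summed to 1179, 226, 175 and 58.7 CPM in WT replicates 1 to 4, the same order as *Cdkn1a*, and to 358, 586 and 987 CPM in *Trpc1-/-* replicates 1 to 3, the reverse of the order of *Cdkn1a*. Osteoblast and osteocyte markers had a lower mean in 9 of 9 (sums of 1109 to 1948 CPM and 1111 to 1610 CPM), and adipocyte markers a higher mean in 6 of 6 (299 to 457 CPM and 419 to 508 CPM). None of the markers in these lists was at 0 in all samples. The part of cell composition in the *Cdkn1a*, *Cdkn1c*, *Cdkn2c* and *Cdkn2d* values was not tested.

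**Figure D4:**
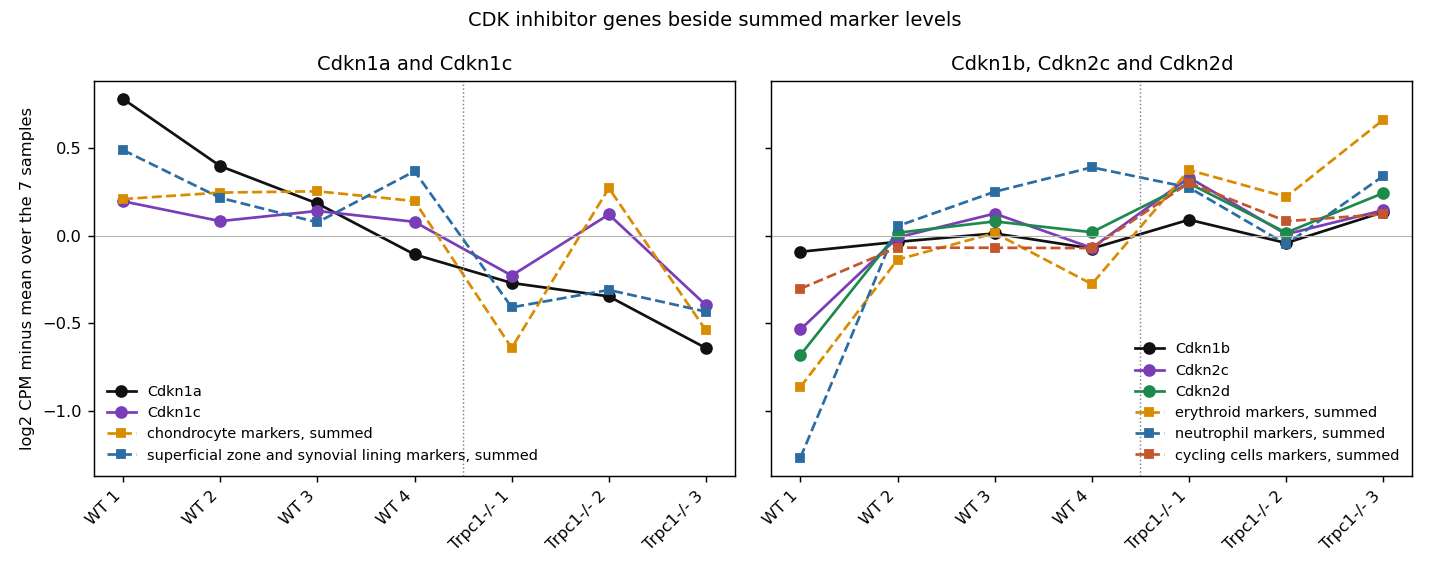
Log2 CPM minus its mean over the 7 samples, for CDK inhibitor genes (solid lines) and for summed markers (dashed lines), with the samples along the horizontal axis; the left panel has *Cdkn1a* and *Cdkn1c* with chondrocyte and superficial zone markers, the right panel the other members with erythroid, neutrophil and cycling-cell markers. *Trpc1-/-* replicate 2 has a chondrocyte sum (6229 CPM) and *Cdkn1c* level (10.3 CPM) like those of WT samples. Its *Cdkn1a* level (9.01 CPM) and superficial zone sum (829 CPM) are below those of all WT samples.

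The genes around the CDK inhibitors were followed in 13 lists of 127 genes, of which 111 passed the filter. None was called by edgeR after adjustment, and 17 of 111 (15.3%) had an unadjusted p under 0.05, 10 higher and 7 lower in *Trpc1-/-* samples, against 741 higher and 902 lower of all 16429 genes. DESeq2 called 2 of the 111, a share close to the 1.79% of all tested genes; both were in the list of ubiquitin ligases that degrade p21, p27 and p57. *Dtl*, the substrate receptor through which CRL4 targets p21 in S phase, had 54.3 to 59.1 CPM in WT samples and 64.9 to 68.6 CPM in *Trpc1-/-* samples (log2 fold change 0.25, DESeq2 adjusted p = 0.0138). *Ubac1*, a subunit of the KPC ligase of p27, had 95.7 to 104 CPM and 114 to 133 CPM (0.31, DESeq2 adjusted p = 0.0167). Both were higher in 3 of 3 *Trpc1-/-* samples than in any WT sample, where the groups did not overlap for 13.6% of all tested genes. Both had an edgeR adjusted p of 0.395. Neither call was stable to single libraries. In DESeq2, *Dtl* was called only without WT replicate 1 (adjusted p = 0.000969), and without any other single sample its adjusted p was 0.0526 to 0.440. *Ubac1* was called without WT replicate 1 (0.00843) or *Trpc1-/-* replicate 2 (0.00118) and had an adjusted p of 0.0655 to 0.345 without any of the others.

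The kinases that the inhibitors act on were counted by class. Of the D-type cyclins and CDK4/6, the targets of the INK4 proteins, 0 of 5 reached an unadjusted p under 0.05 in edgeR: log2 fold changes were −0.054 for *Ccnd1*, −0.013 for *Ccnd2*, 0.028 for *Ccnd3*, 0.18 for *Cdk4* and 0.0095 for *Cdk6*. Of the later cyclins and CDK1/2, 3 of 7 tested did so, against 10.0% of all tested genes; all 3 were higher in *Trpc1-/-* samples, and the list median was 0.34. *Ccne1*, a partner of CDK2 at the start of S phase, had 26.8 to 34.3 CPM in WT samples and 35.5 to 42.3 CPM in *Trpc1-/-* samples (edgeR adjusted p = 0.407). *Ccne2*, the other E-type cyclin, averaged 51.5 ± 6.60 CPM (SD, n = 4) and 70.0 ± 9.96 CPM (SD, n = 3; edgeR adjusted p = 0.408), and *Cdk1*, the mitotic kinase, named after its values were seen, had a log2 fold change of 0.38.

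Regulators and substrates of the kinases followed. Among the pocket proteins, log2 fold changes were 0.15 for *Rb1*, 0.20 for *Rbl1* and −0.0036 for *Rbl2*, and *Rbl1* alone had an unadjusted p under 0.05. The CDK-activating kinase genes *Cdk7*, *Ccnh* and *Mnat1* had log2 fold changes of 0.073, 0.16 and −0.0017, with 0 of 3 at an unadjusted p under 0.05. The same held for 0 of 5 CDC25 phosphatases and inhibitory kinases: *Cdc25a* −0.026, *Cdc25b* 0.21, *Cdc25c* 0.16, *Wee1* 0.12 and *Pkmyt1* −0.017.

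The p53 pathway, the best known inducer of *Cdkn1a*, had members on both sides of 0. *Trp53* had a log2 fold change of 0.12 (edgeR adjusted p = 0.717), *Mdm2*, its ubiquitin ligase and target, −0.050 (0.790), and *Mdm4* −0.12 (0.761). Of 22 other p53 target genes, 4 (18.2%) had an unadjusted p under 0.05, against 10.0% of all tested genes, and the list median was −0.055. *Ddit4l* was the lower one, at 12.4 to 14.1 CPM in WT samples and 8.73 to 11.8 CPM in *Trpc1-/-* samples (edgeR adjusted p = 0.407). *Gadd45a*, a stress-induced gene, was higher, at 22.8 to 31.0 CPM and 31.9 to 39.5 CPM (0.408). *Btg2* (0.24) and *Ccng1* (0.21), named after their values were seen, were also higher on the log2 scale.

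Of 16 transcription factors that act upstream of CIP/KIP and INK4 genes, 4 had an unadjusted p under 0.05, against 10.0% of all tested genes. All 4 were lower in *Trpc1-/-* samples, as were 902 of the 1643 such genes among all tested, and the list median was −0.018. *Klf4*, an activator of *Cdkn1a*, had 31.7 to 42.2 CPM in WT samples and 26.3 to 31.6 CPM in *Trpc1-/-* samples (edgeR adjusted p = 0.407). *Smad3*, which carries TGF-β signals, had 51.2 to 57.9 CPM and 40.8 to 48.6 CPM (0.453). The others, *Ets2* and *Zbtb17*, were named after their values were seen and had log2 fold changes of −0.16 each.

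The repressors and neighbours of the INK4 and *Cdkn1c* loci showed few differences. In the Polycomb list 1 of 14 had an unadjusted p under 0.05, *Suz12* at 0.23, followed by *Phc2* at −0.13. No imprinted neighbour of *Cdkn1c* reached it among 7 tested, the nearest being *Kcnq1* (−0.54) and *Nap1l4* (0.19). Next to the INK4 locus, *Mtap* was the 1 gene of 6 that passed the filter (0.025). Among senescence-associated genes 2 of 13 tested (15.4%) did so, near the 10.0% of all tested genes, both lower: *Igfbp3* (−0.27) and *Igfbp5* (−0.45), which encode binding proteins of insulin-like growth factors. *Igfbp5* reached 446 CPM in WT replicate 1, against 273 to 304 CPM in the other WT samples and 218 to 254 CPM in *Trpc1-/-* samples.

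Without WT replicate 1 the later cyclins and CDK1/2 had 4 of 7 tested genes at an unadjusted p under 0.05, and the upstream transcription factors had 5 of 16, while the background over all genes was 16.9% in that fit. Counts in other lists also moved: CDC25 phosphatases and inhibitory kinases from 0 to 2 of 5 and the Polycomb list from 1 to 3 of 14. Pocket proteins went from 1 to 2 of 3, p53 targets from 4 to 5 of 22 and senescence-associated genes from 2 to 3 of 13.

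**Figure D5:**
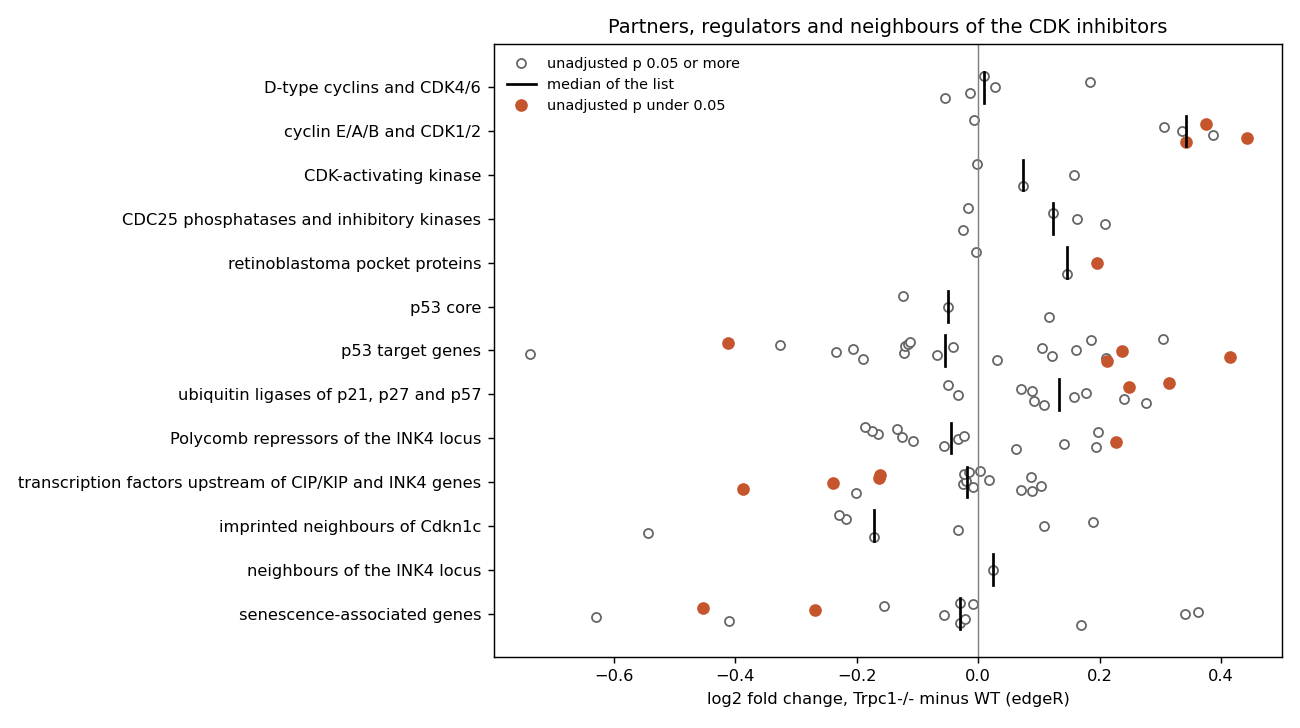
Log2 fold change (*Trpc1-/-* over WT, edgeR) of each tested gene in the 13 lists, 1 row a list; filled points have an unadjusted p under 0.05 and black lines are list medians. The later cyclins and CDK1/2 have the highest median of the 13 lists (0.34), and the p53 targets are spread on both sides of 0 (median −0.055).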

How the data were processed

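The authors trimmed stranded total RNA reads (ribosomal RNA depleted) with cutadapt 2.5, aligned them to GRCm38 with HISAT2 2.1.0 and deposited estimated counts per gene from StringTie 2.0.3. The annotation version is not given in the sources used here. The deposited values were whole numbers and were used as such. The 7 CDK inhibitor genes, the pathway lists and the tests were chosen with earlier results of these data known. edgeR 4.0.16 (R 4.3.3) was fitted with genotype alone to the 16429 genes that exceeded 1 CPM in 2 or more samples, with TMM scaling, a quasi-likelihood test and Benjamini-Hochberg adjustment. DESeq2 1.42.0 and limma 3.58.1 (voom) were alternatives. Genes under the filter were tested by an exact permutation test of log2(CPM + 0.1). Named genes were the CDK inhibitors, *Trpc1*, *Trp53* and *Mdm2*, all genes of lists of up to 5 genes, the 2 smallest p of longer lists, and the 3 genes nearest in pattern to each tested CDK inhibitor. Scripts were tested on simulated counts. Positions are from GENCODE M21. Samples of a group are separate pools of animals, and p-values measure the spread between these samples.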

Additional observations from a re-analysis of the deposited data

Results flagged for a closer look

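*Cdkn2d* had 1 low library among the WT samples. WT replicate 1 had 22.1 CPM and the other WT samples 35.8 to 37.5 CPM, so the gap between it and its nearest neighbour was 0.893 of the whole range of the group, above the 95% critical value of Dixon's test for 4 samples. Chance flags about 1 in 20 groups tested in this way. The check was made on the WT values of each of the 7 CDK inhibitor genes, of *Trpc1* and of the library totals, and only *Cdkn2d* was flagged. The erythroid, neutrophil, B cell, plasma cell, T cell, macrophage, megakaryocyte, osteoclast, osteoblast and cell-cycle marker sums were also lowest in that library. Whether they had a part in the low *Cdkn2d* value was not tested.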

How the results depend on the processing

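The direction of the log2 fold change was the same as reported under 25 of 25 alternatives for each of the 5 tested CDK inhibitors. The range was −1.01 to −0.58 for *Cdkn1a*, 0.050 to 0.17 for *Cdkn1b*, −0.44 to −0.16 for *Cdkn1c*, 0.15 to 0.42 for *Cdkn2c* and 0.15 to 0.48 for *Cdkn2d*. Over all genes edgeR called 0, DESeq2 294, limma-voom 1 and DESeq2 on library numbers below 1400 181. With 1 sample left out edgeR called 0 to 52, the 52 being without WT replicate 1. With DESeq2, which was refitted in these ways after the data were seen, leaving out 1 sample gave 892, 62, 134 and 281 (WT replicates 1 to 4) and 84, 371 and 37 (*Trpc1-/-* replicates 1 to 3). edgeR called 0 CDK inhibitors with any sample left out. DESeq2 called 1 (*Cdkn1a*) on all samples (−0.76) and on library numbers below 1400. With a sample left out DESeq2 called 0 to 1 (*Cdkn1a* without WT replicate 1 or 4, and *Cdkn1c*, at −0.43, without *Trpc1-/-* replicate 2). At an unadjusted p under 0.05, limma-voom had 2 CDK inhibitors, edgeR with the library number range as a covariate 3 and DESeq2 on library numbers below 1400 3. Fits with 1 sample left out had 1 to 2 (edgeR) or 1 to 3 (DESeq2). The cause of these differences was not tested. Deviations of same-numbered samples correlated at −0.460, −0.407 and 0.00145 (mean −0.289), against a mean of 0.143 for differently numbered samples. Because deviations were taken from means of few samples, these correlations cannot decide whether replicate numbers pair the samples. With the replicate block edgeR called 0 genes (*Cdkn1a* −0.88, adjusted p = 0.768), and DESeq2 with the block called 54 genes, 1 of them a CDK inhibitor (*Cdkn1a*, −0.87, adjusted p = 0.00380).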
